A study of Arabidopsis thaliana with 12 samples.

Results

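GH3.17 encodes an auxin-conjugating enzyme of Arabidopsis thaliana, and its transcript was followed in whole roots of 4 genotypes. It was read by every probe set whose array annotation names GH3.17 and no other gene, which is 1 of 22810, identifier 259596_at, for 1 of 13350 genes named in this way. The gene was chosen by its measured signal in cngc4 roots, which is below that in wild-type roots, so its levels in those arrays are a description and carry no test. The 12 samples were 3 each of cngc4, cngc1, akt1 and the wild type ws2, each a pool of 20 to 40 plants at the same recorded growth stage. The akt1 line is akt1-1 in the Wassilewskija accession, which is also the wild type. For cngc4 and cngc1 the labels name the mutant alone, without its background accession, so a difference of these lines from ws2 or akt1 may include a difference between accessions. AKT1 brings potassium into root cells, while the CNGC proteins are cation channels gated by cyclic nucleotides. No check of the labels against these channel genes was made, since their transcripts were not analysed here.

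GH3 enzymes join a plant hormone to an amino acid. GH3.17 acts on indole-3-acetic acid, the main auxin, with a preference for glutamate, and the product is taken out of the active hormone pool. In Arabidopsis roots the enzyme is known from the lateral root cap, where the cytokinin response factor ARR1 acts upstream of it and auxin conjugation there limits the auxin that reaches the meristem. Other genes make auxin (the TAA and YUC families), move it (PIN, AUX and LAX carriers), release it from conjugates (the ILR1-like hydrolases) or oxidise and glucosylate it, and Aux/IAA and ARF proteins carry the response.

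Across genotypes, GH3.17 signal was lowest in cngc4, next in cngc1, and higher in ws2 and akt1. The signal is the deposited intensity in arbitrary units on a linear scale, already scaled to a common mean per array. In cngc4 roots GH3.17 read 142, 98.4 and 109.5 in replicates 1, 2 and 3. In cngc1 roots it read 146.4, 184.4 and 178.6, and in akt1 roots 236.8, 374.1 and 379.8. In ws2 roots it read 256.4, 247.4 and 297.2. All 6 cngc4 and cngc1 arrays lay below all 6 akt1 and ws2 arrays, as in 0.699% of the probe sets kept; part of this pattern is what the gene was chosen by. The akt1 and ws2 arrays overlapped, since akt1 replicate 1 was below every ws2 array and the other 2 akt1 arrays were above every ws2 array.

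**Figure D1:**
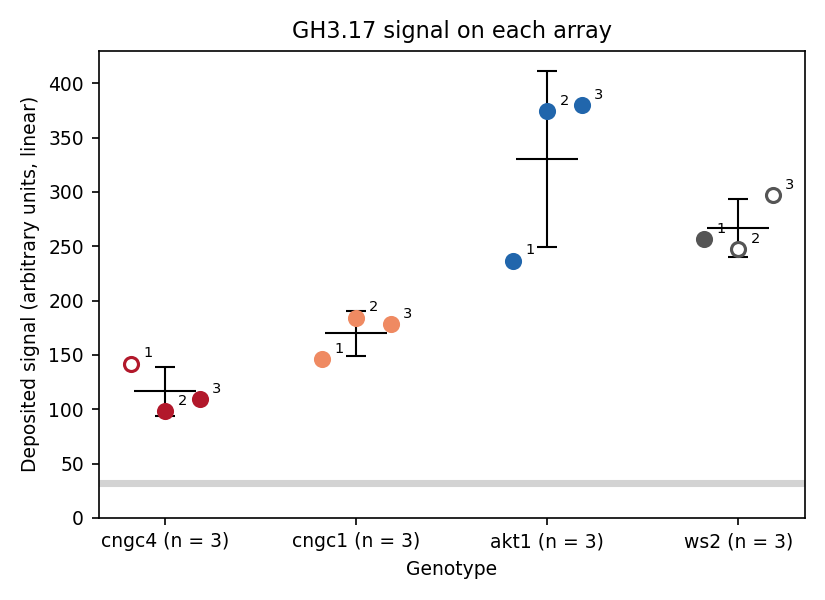
Deposited GH3.17 signal (arbitrary units, linear axis from 0) on each of the 12 arrays, with the genotype on the horizontal axis. Points are arrays, numbered by replicate, with open points for arrays that the titles mark as repeats; long bars are means, whiskers are SD (n = 3), and the grey band is the range of the 40th percentile of each array (29 to 33.7). The 6 cngc4 and cngc1 arrays lie between 98.4 and 184.4, and the 6 akt1 and ws2 arrays between 236.8 and 379.8.

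The means were 117 ± 22.7 in cngc4, 170 ± 20.5 in cngc1, 330.2 ± 81.0 in akt1 and 267 ± 26.5 in ws2 (SD, n = 3 each). GH3.17 passed the filter on low signal on every array: its signal was 3.34 to 12.9 times the 40th percentile of its array. The order of the levels was therefore cngc4, cngc1, ws2 and akt1, from low to high. The step from cngc4 to cngc1 was narrow, with 4.4 units between the nearest arrays, while 63 units separated the highest cngc1 array from the lowest ws2 array. The arrays of the last neighbours in the order, ws2 and akt1, overlapped, and their difference was not tested. In whole roots, fewer cells of a type and less RNA per cell cannot be told apart.

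On the scale of log2(signal + 16), cngc4 minus ws2 was -1.10 with a standard error of 0.18, which is 2.15-fold lower in cngc4. The difference cngc1 minus ws2 was -0.61, and akt1 minus ws2 was 0.27, both with a standard error of 0.18. These 3 differences share the ws2 arrays. Against the other mutants, cngc4 minus akt1 was -1.37 and cngc4 minus cngc1 was -0.49. Ranked from the lowest over the 14745 probe sets kept, GH3.17 stood at place 63 in cngc4 minus ws2, 126 in cngc1 minus ws2, 16 in cngc4 minus akt1 and 672 in cngc4 minus cngc1. For akt1 minus ws2, 94% of probe sets had a difference as low or lower.

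The comparison of cngc1 with akt1 is the only one whose difference uses neither the cngc4 nor the ws2 arrays. It is therefore the only one tested for GH3.17. The signal was 146.4, 184.4 and 178.6 in cngc1 roots, against 236.8, 374.1 and 379.8 in akt1 roots, with no overlap between the groups. Across all probe sets kept, 5.91% had every cngc1 array below every akt1 array. The difference was -0.87 on the log2 scale with a 95% confidence interval of -1.25 to -0.50, or 1.83-fold (1.41 to 2.39) higher in akt1. GH3.17 ranked 14 of 14745 by p (unadjusted p = 1.83e-04 by limma), and it did not pass after Benjamini-Hochberg adjustment over all probe sets (limma adjusted p = 0.185). The test called 0.00678% of the probe sets, which is 1 in all. Its interval and p take the spread from all arrays, those of cngc4 and ws2 included. In a fit to the cngc1 and akt1 arrays alone the difference was again -0.87 (limma adjusted p = 0.302). Without akt1 replicate 1, the lowest akt1 array, the difference was -1.09 and passed (limma adjusted p = 0.017). In that fit 11 of the 14745 probe sets passed, against 1 with all arrays. In the other 24 settings tried GH3.17 did not pass, with limma adjusted p from 0.0985 to 0.679.

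**Figure D2:**
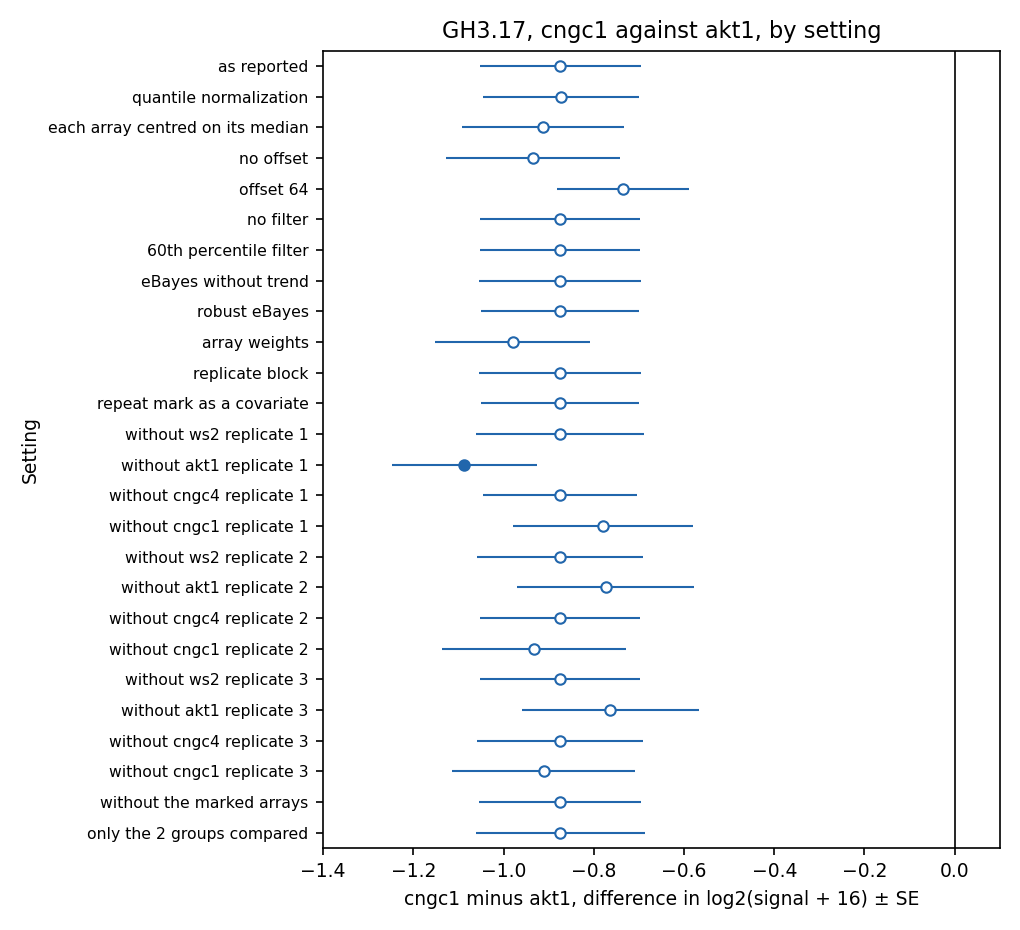
Difference in GH3.17 between cngc1 and akt1 (log2(signal + 16), horizontal axis) under each setting (vertical axis); points are limma estimates, whiskers are standard errors, and the filled point passed at an adjusted p under 0.05. Estimates run from -1.09 to -0.74, all below 0, and the setting without akt1 replicate 1 alone passed.

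Of the RNA quality readings, the actin ratio stood apart between these same groups, while their GAPDH ratios overlapped. For the actin control, the signal at the 3-prime end over that at the 5-prime end was 1.42 to 1.54 in cngc1, against 1.58 to 2.06 in akt1, without overlap. In cngc4 it ran from 1.64 to 1.94 and in ws2 from 1.53 to 1.94. The GAPDH ratio was 1.12 to 1.24 in cngc1, 1.12 to 1.19 in akt1, 1.06 to 1.25 in cngc4 and 1.03 to 1.09 in ws2. The part of RNA quality in the cngc1 difference was not tested. Background (143), noise (12.9) and the count of outlier cells (1251) were highest on the array of cngc1 replicate 3, and without it cngc1 minus akt1 was -0.91 (limma adjusted p = 0.312). Array medians ran from 43.3 to 48.5, and the number of arrays limits how precise these values are.

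The titles mark cngc4 replicate 1 and ws2 replicates 2 and 3 as repeats, without saying of what. Among marked arrays GH3.17 read 142 in cngc4 and a mean of 272 in ws2, a difference of -0.86 on the log2 scale. Among unmarked arrays it averaged 104 in cngc4 and read 256.4 in ws2, a difference of -1.18. Each side has 1 array in 1 of its groups, the gene was chosen by its low signal in cngc4, and the part of the repeat mark in the difference was not tested. Of the shoot photosynthesis markers, 5 of 13 were tested. All 5 were higher in cngc4 than in ws2, each with a limma unadjusted p under 0.05. Over all probe sets, 46% had a positive difference. After adjustment 2 of the 5 passed in cngc4, where 9.09% of all probe sets passed against ws2. The summed signal of the 5 ran from 646 to 757 in cngc4 and from 293 to 440 in ws2. LHCB4.1, an antenna protein of photosystem II, was higher in cngc4 by 1.34 (limma adjusted p = 0.00106) and CHLM, an enzyme of chlorophyll synthesis, by 0.64 (limma adjusted p = 0.00545), while RCA, PRK and SBPASE, with differences of 0.63, 0.51 and 0.36, did not pass. The calls of LHCB4.1 and CHLM were each lost in 2 of 26 other settings. In cngc1 the marker sum was between 309 and 415.5, and the akt1 arrays gave 286 to 314.5. The part of shoot tissue in the cngc4 difference was not tested.

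Of the root cap, epidermis and meristem markers, 3 of 21 could be followed, and none of the root cap markers was among them. AUR1, an Aurora kinase of dividing cells, read 131, 109 and 106 in cngc4 roots, against 154, 172 and 163 in ws2 roots. It was lower in cngc4 by a log2 difference of -0.45 (limma adjusted p = 0.0366), a call that was lost in 8 of 26 other settings. The root hair expansins EXPA7 (-0.21) and EXPA18 (-0.32) did not pass. The summed signal of the 3 markers lay between 392 and 439.5 in cngc4, 449.7 and 539.8 in cngc1, 401 and 613 in akt1, and 439.5 and 771 in ws2. No cngc4 array exceeded a ws2 array in this sum, whereas the cngc1 sums lay inside the ranges of akt1 and ws2. The part of these markers in the level of GH3.17 was not tested.

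In the GH3 family GH3.17 had 1 tested relative, WES1. Of the 19 loci listed for the family, 11 are named by a probe set of the array and 8 could not be followed. Apart from GH3.17 and WES1, the other 9 did not pass the filter on low signal: 6 of them lay at or below the 40th percentile on all 12 arrays, and none exceeded a signal of 35.2 on any array. The low members include GH3.1, GH3.3 and GH3.9. No statement on a difference between genotypes is made for them.

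WES1, also called GH3.5, encodes an enzyme that conjugates auxin and salicylic acid. It read 235.8, 204.7 and 165.2 in cngc4, 200.1, 161.7 and 146.5 in cngc1, and 169.9, 103.7 and 180.0 in akt1. In ws2 it read 175.3, 180.0 and 175.6, inside the range of the cngc4 and cngc1 arrays. The log2 difference from ws2 was 0.16 in cngc4, -0.07 in cngc1 and -0.24 in akt1, with limma adjusted p of 0.623, 0.96 and 0.957. For cngc1 minus akt1 it was 0.17 (limma adjusted p = 0.741). Whether WES1 and GH3.17 differ in their response was not tested.

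Of the other listed genes of auxin and cytokinin, few could be tested, and none of these was from the cytokinin list. None of those tested passed in any mutant, which is near the share of all probe sets that passed there. Of 184 listed genes besides GH3.17, 31 are named on the array and 13 were tested. In cngc4 none of the 13 passed limma at an adjusted p under 0.05, where 9.09% of all probe sets passed, and 2 had an unadjusted p under 0.05. In cngc1 and in akt1 none passed and none had an unadjusted p under 0.05, where 0.00678% and 0% of all probe sets passed. The median log2 difference of the 13 was 0.02 in cngc4, 0.05 in cngc1 and 0.06 in akt1, beside medians of -0.03, 0.01 and -0.02 over all probe sets. Those medians rest on the genes that the annotation and the filter left, not on the pathway as a whole.

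**Figure D3:**
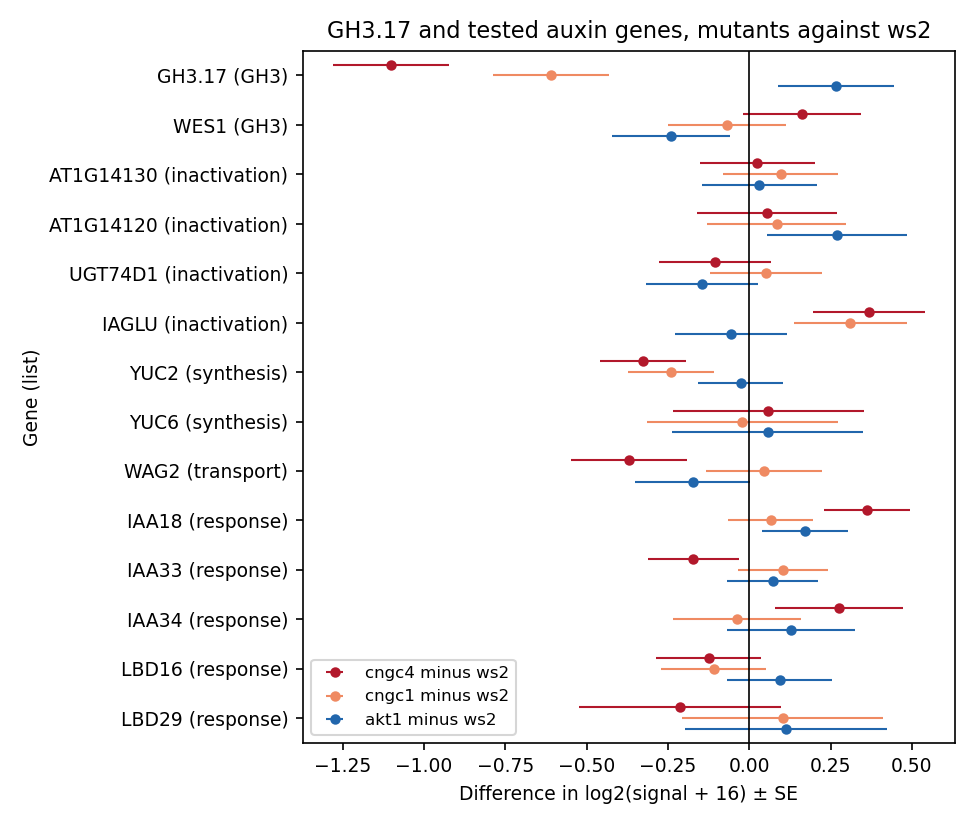
Difference in log2(signal + 16) from ws2 (horizontal axis) for GH3.17 and the 13 tested genes of the auxin lists (vertical axis, list in brackets), in cngc4, cngc1 and akt1; points are limma estimates and whiskers standard errors. GH3.17 lies at -1.10 in cngc4 and -0.61 in cngc1, and the 13 other genes lie between -0.37 and 0.37 in the 3 mutants.

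The genes of auxin inactivation that were tested gave small differences. IAGLU, which glucosylates auxin, read 62.4, 65.4 and 65.2 in cngc4, against 38.4, 51.7 and 49.5 in ws2. Every cngc4 array was above every ws2 array, as in 15% of all probe sets, and the log2 difference of 0.37 did not pass (limma adjusted p = 0.21). UGT74D1, another auxin glucosyltransferase, had a difference of -0.11 in cngc4. AT1G14130 and AT1G14120, which stand in the same list, had differences of 0.02 and 0.05. The listed conjugate hydrolases could not be followed.

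Among genes of auxin synthesis, YUC2, a flavin monooxygenase of the last step, had the lowest value. It read 40.8, 50.2 and 43.0 in cngc4, against 51.9, 56.6 and 72.9 in ws2. The groups did not overlap, as in the 15.9% of all probe sets with every cngc4 array below every ws2 array. Its log2 difference was -0.33 (unadjusted p = 0.0249, limma adjusted p = 0.139), and in cngc1 it was -0.24 (limma adjusted p = 0.726). YUC6 differed by 0.06 in cngc4, and its signal was at or below the 40th percentile on 9 of 12 arrays. The single tested gene of the transport list was WAG2, a protein kinase related to the PIN regulator PINOID. Its difference in cngc4 was -0.37 (limma adjusted p = 0.22), with arrays that overlapped those of ws2.

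In auxin response, IAA18, an Aux/IAA repressor, had the highest value. It read 186.9, 220.7 and 207.5 in cngc4, against 128.8, 160.1 and 182.9 in ws2. Its log2 difference was 0.36 and did not pass (unadjusted p = 0.0153, limma adjusted p = 0.105), except with array weights (limma adjusted p = 0.0196). The other response genes, IAA34 (0.28), LBD16 (-0.12), IAA33 (-0.17) and LBD29 (-0.21), did not pass in cngc4 either. LBD16 and LBD29 are transcription factors of lateral root formation. Of the cytokinin list, ARR15 and RR16 are named on the array, and neither passed the filter on low signal.

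The genes whose signal followed GH3.17 most closely over the 12 arrays were AT3G58550, AT2G40120, AT2G01580, scpl48 and AT4G24130. Likeness was measured as Pearson's r of log2(signal + 16) with GH3.17 over the 12 arrays, among the 8131 other kept probe sets that name 1 gene. The values were 0.95 for AT3G58550 and 0.94 for each of the other 4, where the median over all genes was 0.03. AT4G26790, AT5G23750, AT5G62420, AT5G55180 and AT2G28410 completed the 10 highest, with r from 0.93 to 0.94. These points share their arrays, and genotype means enter r, so it is given without a p.

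The signal of AT3G58550 was 486 to 582 in cngc4 roots, 583 to 648 in cngc1 roots, 780 to 984 in akt1 roots and 753 to 1112 in ws2 roots. Its arrays kept the order of GH3.17, with cngc4 below cngc1 and both below akt1 and ws2. scpl48, a serine carboxypeptidase-like gene, had signals of 138 to 180.0 in cngc4 roots, 198 to 232 in cngc1 roots, 202 to 357 in akt1 roots and 265 to 295 in ws2 roots. The akt1 arrays of scpl48 reached into the cngc1 range, which those of GH3.17 did not.

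The r within genotypes and the r without cngc4 reuse arrays by which these 10 genes were picked, so their high values are a description only. For deviations from the genotype means, the 10 genes had r from 0.61 to 0.93 with GH3.17. Of the 8131 genes, 526 had such an r of at least 0.6. Over the 9 arrays without cngc4, r ran from 0.83 to 0.95, the highest being that of AT4G24130. The plot of likeness shows akt1 replicate 1 below the other akt1 arrays for GH3.17 and for each of the 10 genes.

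The genes most opposed to GH3.17 were AT3G05640 (r = -0.93), FDH (-0.93), AT1G07040 (-0.93), AT5G57655 (-0.93) and AT3G17450 (-0.92). FDH, the mitochondrial enzyme formate dehydrogenase, read 186 to 268 in cngc4 roots, 72.4 to 145 in cngc1 roots, 47.9 to 94.3 in akt1 roots and 59.1 to 74.0 in ws2 roots. It was thus high in the cngc4 arrays, where GH3.17 was low. In cngc1 its arrays overlapped those of akt1 and ws2.

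**Figure D4:**
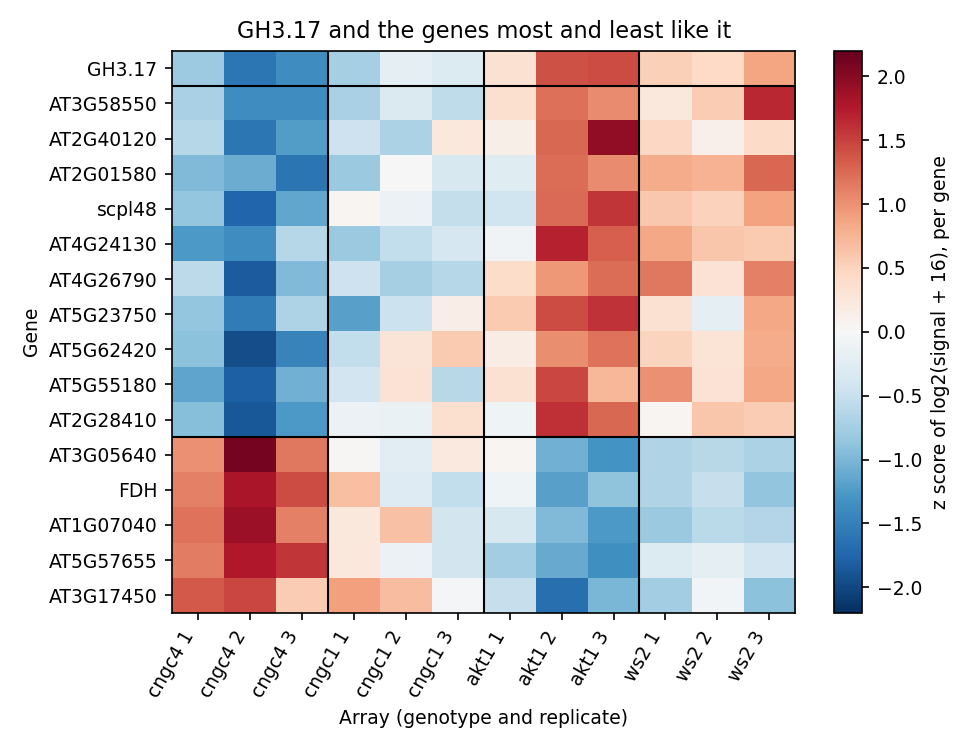
Signal of GH3.17 (top), the 10 genes of highest r and the 5 of lowest r (vertical axis) on each of the 12 arrays (horizontal axis), shown as the z score of log2(signal + 16) per gene; red is above and blue below the gene's own mean. GH3.17 and the 10 genes are low in cngc4, and the 5 opposed genes (r from -0.93 to -0.92) are high there.

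The order seen for GH3.17 was shared by a small part of the probe sets. Of 14745 probe sets, 0.699% (103, GH3.17 included) had all 6 cngc4 and cngc1 arrays below all 6 akt1 and ws2 arrays. In 0.712% they were all above. The count below was 115 to 230 with an array left out, and it also rose without the arrays marked as repeats. By construction, removing arrays can only raise this count or leave it the same. The lowest count in any other setting was 89. With cngc4 also below cngc1, 0.21% (31) remained, GH3.17 among them. Among these 31, 5 others had a lower cngc4 minus ws2 difference than GH3.17, and 2 had a lower cngc1 minus ws2 difference. In 15 of the 30 others the akt1 mean was above the ws2 mean, as for GH3.17. Over all probe sets, 46% had a positive akt1 minus ws2 difference, so that 15 of 30 is near this share. The order of the 31 was counted after the values of GH3.17 were seen, and it uses the arrays by which the gene was chosen. For single pairs, 15.9% of probe sets had all cngc4 arrays below all ws2 arrays and 5.85% had all cngc1 arrays below all ws2 arrays. All cngc4 arrays lay below all akt1 arrays in 14.2% and below all cngc1 arrays in 15.7%.

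Replicates of GH3.17 varied somewhat more than those of most probe sets of like signal. Its residual SD within genotypes was 0.24 on the log2 scale, and 77.1% of the 1000 probe sets nearest in mean signal had a smaller one, with a median of 0.18. The widest genotype was akt1, with an SD of 0.37, and the narrowest was ws2, with 0.13. The coefficient of variation of the signal was 19.4% in cngc4, 12.1% in cngc1, 24.5% in akt1 and 9.94% in ws2.

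Of the 10 genes nearest to GH3.17 in chromosome order, 5 on each side, 5 were tested. None passed in cngc4 minus ws2, where 9.09% of all probe sets passed, so that none of 5 is near the share over all probe sets. Their log2 differences in cngc4 minus ws2 ran from -0.47 to 0.44. SCPL45, a serine carboxypeptidase-like gene 2 places before GH3.17, read 53.0 ± 4.03 in cngc4 and 79.7 ± 9.03 in ws2 (SD, n = 3 each), with a difference of -0.47 (limma adjusted p = 0.0589), and it passed in 4 of 26 other settings. AT1G28120, the tested gene nearest to GH3.17, read 225 ± 20.5 in cngc4 and 266 ± 18.7 in ws2, a difference of -0.23 (limma adjusted p = 0.29). AT1G28140 (0.06), AT1G28150 (0.29) and AT1G28100 (0.44) had positive differences and did not pass. With 10 genes on each side, 10 were tested and 1 passed in cngc4, AT1G28190, with a difference of 0.74 (limma adjusted p = 0.0488); it was named after its value was seen. In cngc1 minus ws2 and in cngc1 minus akt1 none of the 5 nearest passed, and 0.00678% of all probe sets did in each.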

How the data were processed

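Total RNA of whole roots was extracted with TRIzol, biotin-labelled and hybridised to single-colour arrays of 22810 probe sets, per the labels' protocols. Each deposited value is a linear intensity, 1 for each probe set on each array. The mean after trimming 2% at each end was 100 on every array, so the deposited intensities had been scaled beforehand. The software for this step is not given in the sources here. Detection calls were not used.

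Values were analysed as log2(signal + 16). After removal of 64 control probe sets, those above the 40th percentile of their array on at least 3 arrays were kept, 14745 in all. Limma 3.58.1 in R 4.3.3 fitted 4 genotype means to the 12 arrays, with a trended eBayes prior. All tests were two-sided, with Benjamini-Hochberg adjustment over all kept probe sets and a threshold of 0.05. With 3 arrays against 3 no permutation test can reach that threshold, so none was used. The procedure was also run on simulated data, whose outcome is not given, and no result here rests on that run. No label states that the replicates were grown separately. The p-values therefore cover only the variation among these arrays, which may be technical.

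Gene names came from the array's annotation table (13513 probe sets with 1 gene, 503 with several, 8794 unnamed here), with symbols from a RefSeq gene table (TAIR10.1), which also gave the gene order; its coordinates are not printed. Among several probe sets of a gene, the kept one of highest mean signal was used. The named genes are GH3.17; kept GH3 members; per list, members that passed or otherwise up to 4 of smallest p in cngc4 (a few further tested members are also given, and were added after their values were seen); the 10 highest and 5 lowest r with GH3.17; and kept genes among the 5 nearest on each side. The gene, the lists and the tests were chosen with earlier results of these data known. Figures were drawn with matplotlib 3.10.9.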

Additional observations from a re-analysis of the deposited data

How the results depend on the processing

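GH3.17 kept its direction in all 6 comparisons under every setting tried: other variance models, array weights, a quantile or median scaling, the offset removed or set to 64, the filter removed or moved to the 60th percentile, the replicate block, the repeat mark, the 2 groups alone and each array left out. The fits without the marked arrays, and with marked arrays alone for cngc4 and ws2, were chosen after seeing the data. Its cngc4 minus ws2 difference ran from -1.24 to -0.86, cngc1 minus ws2 from -0.67 to -0.45 and akt1 minus ws2 from 0.15 to 0.48. The difference cngc4 minus akt1 was -1.11 with an offset of 64, which shrinks every difference by construction, and ran from -1.58 to -1.26 with an array left out. With an array left out, cngc1 minus akt1 ran from -1.09 to -0.76, with limma adjusted p from 0.017 to 0.679; it passed only without akt1 replicate 1, and the cause was not tested.

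Array weights added 1 auxin list member in cngc4, IAA18; no other setting called a list member in any mutant. The count of all probe sets called in cngc4 minus ws2 was 1340, but 813 without a filter and 2364 with array weights. With the repeat mark in the fit it was 714, and with an array left out it was between 322 and 1498. The fits without the marked arrays and with marked arrays alone gave lower counts still, but each leaves 1 array in a group. There the repeat mark and the number of arrays cannot be told apart. Of the 10 genes most like GH3.17, between 4 and 9 stayed among the 10 highest with an array left out, and 4 without the marked arrays. Of 53 results for single named genes besides GH3.17, 6 changed their call under some setting and 0 reversed while called.

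Of 18 pairs of arrays with the same replicate number in different genotypes, 3 had deviations correlated above 0.1. The range was from -0.17 to 0.27. These values do not settle whether arrays of the same number shared a batch, and the reported fit did not pair them. With the replicate block, GH3.17 cngc1 minus akt1 was -0.87 (limma adjusted p = 0.211), and 1273 probe sets were called in cngc4 minus ws2.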
